A study of Homo sapiens with 3 samples.

Results

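The genes described here are lipoprotein lipase (LPL), 5 receptors of the LDL receptor family (LRP8, VLDLR, LRP1, LRP5 and LRP6), the receptor chaperone LRPAP1 and the endocytic adaptor DAB2, 8 of the 26334 genes in each deposited table. They were taken by symbol, and the set was put together with earlier results of these libraries known, DAB2 and LPL for their differences between them, so their values are a description. All 3 groups are K562, a human line from a chronic myelogenous leukaemia with erythroid and megakaryocytic features. They were infected with a pMYs-IG retrovirus carrying no insert (empty vector), 3xHA-EVI1-WT or 3xHA-EVI1+18, each EVI1 form with 3 copies of the HA tag. GFP-positive cells were sorted 3 days after infection and then cultured, with stable expression from the vector per the labels. What the 18 in EVI1+18 counts is not given in the labels, and the title of the series concerns aberrant splicing of EVI1, a zinc finger transcription factor encoded by MECOM. Each group has 1 library and no replicate, so the spread between cultures is unknown, nothing was tested, and each ratio compares single libraries rather than constructs.

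The LDL receptor family consists of membrane proteins that bind ligands through cysteine-rich repeats, take them up through clathrin-coated pits and release them in the acidic endosome. LPL releases fatty acids from the triglycerides of lipoproteins and can also tether lipoproteins to these receptors. LRP8 and VLDLR bind reelin as well as lipoproteins containing apolipoprotein E, LRP1 clears proteases bound to their inhibitors along with many other ligands, and LRP5 and LRP6 act with Frizzled proteins as co-receptors for WNT. LRPAP1 holds newly made receptors in the secretory pathway away from their ligands, and DAB2 binds the tail motif of several of them and links them to clathrin and the adaptor complex AP2.

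The libraries held 17794423, 18439311 and 20772348 expected counts (empty vector, EVI1-WT and EVI1+18), an expected count being an estimate of the reads from a gene. MECOM, the gene of the construct, had 793, 1039 and 2012 counts, and the tables do not separate transcripts of the vector from those of the cell. Scaled as described below, MECOM was at 1.30 of empty vector with EVI1-WT and 2.21 with EVI1+18, and EVI1+18 exceeded EVI1-WT 1.71-fold. The EVI1 libraries thus differed in MECOM level as well as in form, and the part of each in their ratios was not tested. Of the 8 markers listed for the erythroid and megakaryocytic character of the line, 8 were detected in every library. Of 7 macrophage markers, CSF1R, MARCO, CD163 and MSR1 were at 0 in all libraries, and CD68 accounted for nearly all of the summed level of 34.3 to 47.6 TPM. Adipocyte markers summed to 0 to 0.08 TPM and endothelial markers to 0.05 to 0.27 TPM. TPM is a level per transcript length, scaled to the same total in each library. Stromal markers summed to 112, 18 and 42 counts, mostly from COL1A2 in the empty vector library, and LUM was at 0 throughout.

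The start regions of the genes that differed in opposite directions from empty vector, DAB2 and LRP1, are shown beside that of LRP8, one of the genes whose level varied least. Each is the stretch of 250 bases before the gene's start, from RefSeq on GRCh38.p14, a build other than the hg19 named in the submitters' processing notes. The capitals mark GGGCGG, the core of a GC box, on either strand, a word chosen after the sequences were seen. The DAB2 stretch lies at chr5:39424981-39425230 on the minus strand, that of LRP1 at chr12:57128233-57128482 on the plus strand and that of LRP8 at chr1:53328071-53328320 on the minus strand.
DAB2: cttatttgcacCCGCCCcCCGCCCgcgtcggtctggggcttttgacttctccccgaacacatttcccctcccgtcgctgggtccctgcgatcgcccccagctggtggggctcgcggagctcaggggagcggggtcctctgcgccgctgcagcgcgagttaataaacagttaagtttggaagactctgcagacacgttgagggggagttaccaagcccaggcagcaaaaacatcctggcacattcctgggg
LRP1: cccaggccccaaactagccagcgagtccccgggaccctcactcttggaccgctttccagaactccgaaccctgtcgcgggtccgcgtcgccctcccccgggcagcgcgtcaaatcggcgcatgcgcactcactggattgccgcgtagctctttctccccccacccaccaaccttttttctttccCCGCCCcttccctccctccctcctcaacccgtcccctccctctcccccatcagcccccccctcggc
LRP8: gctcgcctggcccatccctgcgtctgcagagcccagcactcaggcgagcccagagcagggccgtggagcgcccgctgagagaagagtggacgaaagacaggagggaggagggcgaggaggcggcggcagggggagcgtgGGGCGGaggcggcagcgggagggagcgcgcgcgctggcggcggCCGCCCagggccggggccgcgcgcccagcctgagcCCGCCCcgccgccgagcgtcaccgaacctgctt

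Start regions are described for 6 of the 8 genes, DAB2, LRP1, LRP5, LRP8, LRPAP1 and VLDLR. Among the 8 genes, windows on chromosome 8 were left out, and none is described here for LPL and LRP6. Over the full window, which runs from 250 bases before to 50 after the start, GGGCGG occurred 2 times for DAB2, 1 time for LRP1 and 5 times for LRP8, counting both strands and overlaps, and 45.0% of all 35116 windows in the table held it at least 1 time. Words related to GATA factor and EVI1 binding were searched on both strands as well. GATAAG, present in 6.36% of all windows, was in 0 of the windows of these 6 genes, as were ACAAGATA (0.461% of all windows) and GAAGATGAG (0.347%). GC content was 61.0% for DAB2, 67.0% for LRP1, 78.3% for LRP8 and 86.7% for LRP5, against a median of 58.7% over all windows. DAB2 had the lowest GC content and the fewest CG pairs, 20, of the 6 genes. Both were near the middle of all windows, above 55.9% of them for GC content and 58.8% for CG pairs.

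Among the 6 of the 8 genes that averaged 50 counts or more, DAB2 and LPL differed most between the libraries. DAB2 was lower with both EVI1 forms, and most with EVI1-WT. LPL was lower with EVI1+18 and near its empty vector level with EVI1-WT. The receptors LRP8, LRP5 and LRP6 and the chaperone LRPAP1 differed by at most 1.23-fold in any comparison, while LRP1 was higher with both EVI1 forms on few counts. Ratios are of expected counts scaled with TMM factors, which adjust library totals for composition, and the range after each is the exact 95% counting interval, which covers counting error only. Of the 8 genes, 6 averaged 50 counts or more, the level from which genes are counted here, and LRP1 and VLDLR did not.

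LPL had 267 counts (7.04 TPM) with empty vector, 285 (7.03 TPM) with EVI1-WT and 80 (1.71 TPM) with EVI1+18. The EVI1+18 library was the low one, and the other two were alike. The scaled ratio of EVI1-WT to empty vector was 1.06 (0.890 to 1.25), and on the TPM scale it was 0.999. With EVI1+18 LPL was 3.83-fold lower than with empty vector (2.97 to 4.97), and 18 of 10406 genes had a lower ratio. Against EVI1-WT it was 4.04-fold lower (3.14 to 5.24), with 6 genes lower. The comparisons with EVI1+18 share that library, and a deviation of it would appear in both. LPL has 1 transcript in the tables, so no change of transcript could alter its length there. In bulk RNA, fewer cells with the transcript and less of it per cell cannot be told apart.

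DAB2 had 170 counts (3.60 TPM) with empty vector, 16 (0.32 TPM) with EVI1-WT and 42 (0.72 TPM) with EVI1+18. Both EVI1 libraries were low, and their counting intervals on the TPM scale, 0.183 to 0.520 with EVI1-WT and 0.519 to 0.973 with EVI1+18, met at their edges. DAB2 was 10.7-fold lower with EVI1-WT than with empty vector (6.43 to 19.2), with 7 of 10406 genes lower still. It was 4.64-fold lower with EVI1+18 (3.29 to 6.67), with 13 genes lower still. Between the EVI1 forms it was 2.32-fold higher with EVI1+18 (1.28 to 4.41). Its 2 transcripts averaged 4596.92 bases with empty vector and 4601.00 in both EVI1 libraries, a difference of 0.0888%. COL1A2, a collagen gene on the stromal list, followed the same order with 93, 2 and 20 counts, while COL1A1 had 14, 11 and 20. The other genes of that list, COL3A1, DCN, PDGFRB and LUM, had 0 to 4 counts. Whether cells of another type had any part in the DAB2 values was not tested.

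**Figure D1:**
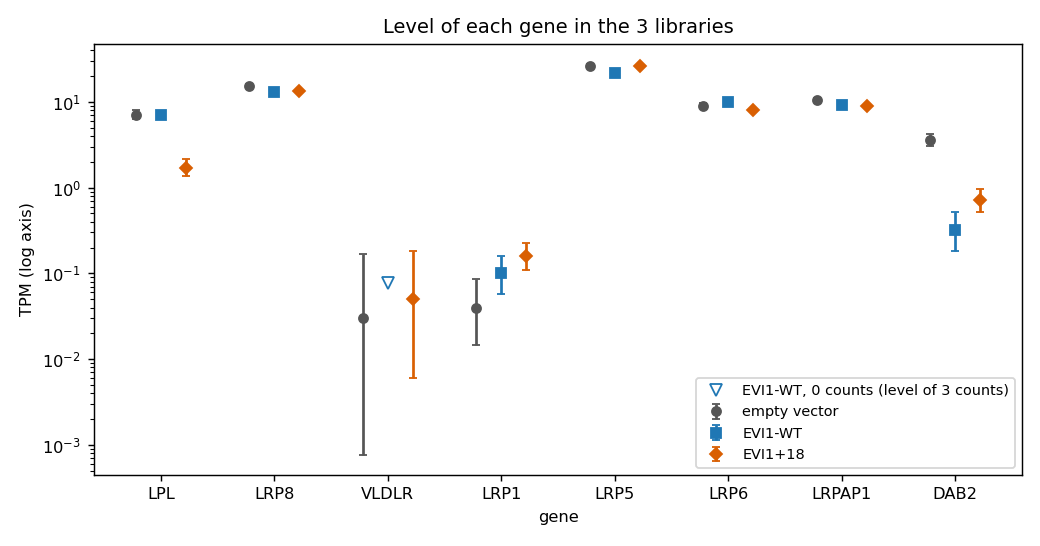
TPM (log axis) of each gene in the empty vector, EVI1-WT and EVI1+18 libraries, 1 library each, with exact 95% Poisson counting intervals as bars; the open triangle marks the level that 3 counts would give where the count was 0. DAB2 stands at 3.60 TPM with empty vector and at 0.32 and 0.72 TPM with the EVI1 forms, and LPL at 1.71 TPM with EVI1+18 and about 7 TPM in the others.

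LRP8, which held nearly all of the RNA of the reelin receptors, had 1170, 1079 and 1255 counts (15.4, 13.2 and 13.3 TPM for empty vector, EVI1-WT and EVI1+18). The libraries were close to each other. The scaled ratio to empty vector was 0.912 with EVI1-WT (0.838 to 0.991) and 0.936 with EVI1+18 (0.863 to 1.01), and the EVI1 forms were at 1.03 to each other (0.946 to 1.11). The mean length over its 4 transcripts was 7237.97 bases with empty vector, 7291.36 with EVI1-WT and 7292.82 with EVI1+18. That range of 0.758% is a shift in the authors' estimated mix of transcripts, whose error is not given. VLDLR, the other reelin receptor, had 1, 0 and 2 counts. These are at or under the floor of 3 counts, which equals 0.0900, 0.0774 and 0.0750 TPM, so no ratio is given and no difference was detectable at this depth.

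LRP1 had 6 counts with empty vector, 17 with EVI1-WT and 32 with EVI1+18 (0.04, 0.10 and 0.16 TPM). Its level was lowest with empty vector and highest with EVI1+18, and low in all. The scaled ratio to empty vector was 2.80 with EVI1-WT (1.05 to 8.68) and 4.65 with EVI1+18 (1.92 to 13.6), and the interval between the EVI1 forms, 0.895 to 3.19 around 1.66, includes 1. LRP1 did not reach a mean of 50 counts and stays out of the counts of genes past 2-fold.

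LRP5 was the most abundant of these genes per length in every library. It had 1412, 1228 and 1709 counts (26.5, 21.5 and 26.0 TPM), lowest with EVI1-WT. LRP5 was at 0.860 of empty vector with EVI1-WT (0.796 to 0.929), at 1.06 with EVI1+18 (0.984 to 1.13; 0.982 on the TPM scale) and EVI1+18 exceeded EVI1-WT 1.23-fold (1.14 to 1.32). Reads of LRP5 can be exchanged with LRP5L, a partial copy with 72, 84 and 91 counts, and the sum of both genes gave ratios of 0.874, 1.06 and 1.21 in the same order. LRP6, its partner in WNT reception, had 962, 1153 and 1058 counts (9.0, 10.1 and 8.02 TPM), highest with EVI1-WT. LRP6 stood 1.18-fold above empty vector in EVI1-WT (1.09 to 1.29), at 0.960 with EVI1+18 (0.878 to 1.05) and 1.23-fold lower with EVI1+18 than with EVI1-WT (1.13 to 1.34). The EVI1-WT library was thus the lowest for one co-receptor and the highest for the other, by amounts that many genes showed. Of the 10406 genes, 1623 had a lower ratio of EVI1-WT to empty vector than LRP5, and 1316 a higher one than LRP6. For the ratio of EVI1+18 to EVI1-WT, 1212 genes were higher than LRP5 and 608 lower than LRP6.

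LRPAP1 had 1186, 1087 and 1236 counts (10.6, 9.08 and 8.96 TPM). Its scaled ratio to empty vector was 0.906 with EVI1-WT (0.834 to 0.985) and 0.909 with EVI1+18 (0.839 to 0.985), and the EVI1 forms were at 1.0 to each other (0.924 to 1.09), on either side of 1 depending on the scaling. The 5 receptors summed to 51.0, 44.9 and 47.5 TPM. LRP5 made up 52.0%, 48.0% and 54.7% of that sum, LRP8 30.2%, 29.4% and 28.0%, LRP6 17.7%, 22.4% and 16.9%, and LRP1 and VLDLR together the small rest. The level of LRPAP1 per summed receptor level was 0.208, 0.202 and 0.189. The sums are in TPM, on which all described genes had median log2 ratios to empty vector of -0.07 (EVI1-WT) and -0.10 (EVI1+18).

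The order of levels per length was LRP5, LRP8, LRPAP1, LRP6, LPL, DAB2, LRP1 and VLDLR with empty vector and with EVI1+18, and LRP6 stood above LRPAP1 with EVI1-WT. Counting intervals of LRPAP1 and LRP6 overlapped in both EVI1 libraries and not with empty vector, and those of LRP1 and VLDLR overlapped in all 3. Other neighbours in the order were apart. The most abundant of them, LRP5, had a TPM above that of 53.0%, 48.7% and 54.8% of the described genes. DAB2 went from above 8.38% of them with empty vector to above 0.163% with EVI1-WT and 0.490% with EVI1+18.

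**Figure D2:**
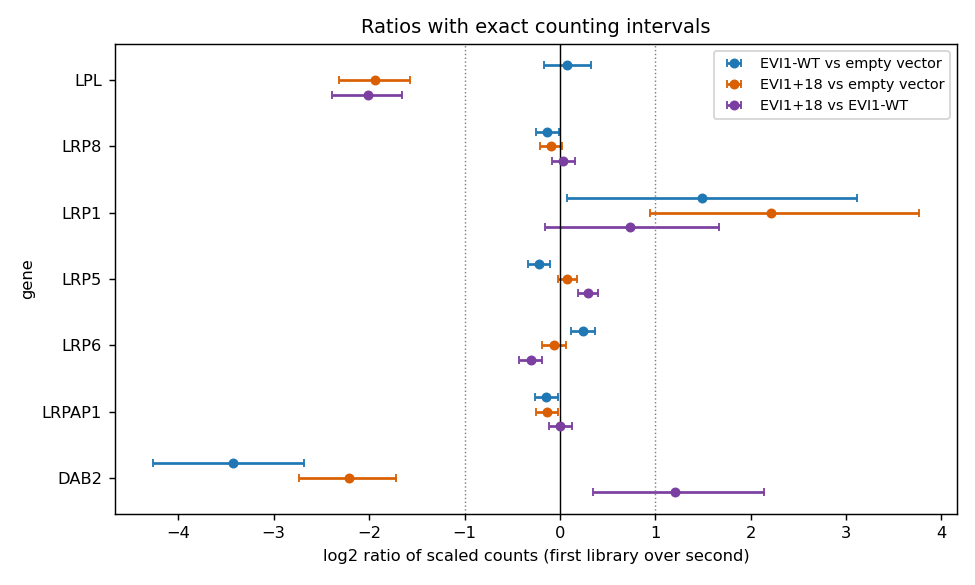
Log2 ratio of scaled counts (x axis, first library over second) for 7 genes in the 3 comparisons, with exact 95% counting intervals; dotted lines mark 2-fold, and VLDLR is left out at 0 to 2 counts. DAB2 lies at -3.43 and -2.21 against empty vector, and LPL at -1.94 and -2.01 in the comparisons that include EVI1+18.

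Between EVI1-WT and empty vector, 1 of the 6 genes averaging 50 counts or more was past 2-fold (DAB2, lower), where 2.40% of all 10406 such genes were past 2-fold in either direction and 1.70% lower (0.702% higher). Between EVI1+18 and empty vector 2 of 6 were past 2-fold (DAB2 and LPL, both lower), against 1.85% of all genes in either direction, 0.836% lower and 1.01% higher. Between EVI1+18 and EVI1-WT 2 of 6 were (DAB2 higher, LPL lower), against 1.16% in either direction, 0.951% higher and 0.211% lower. The genes were chosen from these contrasts, so nothing follows from those counts. DAB2 also averaged 50 counts or more only through empty vector, with 170 counts there, 16 with EVI1-WT and 42 with EVI1+18. The median log2 ratio of the 6 genes was -0.14, -0.12 and 0.02 in the 3 comparisons, and that of all described genes 0.01, -4.2e-04 and -0.01. Both comparisons with empty vector share that library.

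The genes whose scaled counts over the 3 libraries ran most like DAB2 were CD69, an activation antigen of leukocytes, FHL2, a LIM domain protein, and ANKRD20A3, which has near-identical copies and is uncertain. Their distances, taken on log2 values centred on each gene's mean, were 0.28, 0.28 and 0.51. CD69 had 349, 43 and 96 counts, and FHL2 117, 13 and 26, both highest with empty vector and lowest with EVI1-WT. For LPL the closest were the organic anion transporter gene SLCO2B1, TMEM246 and PKP2, a desmosomal gene, at distances of 0.49, 0.54 and 0.54. SLCO2B1 had 99, 106 and 45 counts, TMEM246 193, 215 and 93, and PKP2 143, 163 and 28, each lowest with EVI1+18. These genes were picked for closeness of profile, so the order they share with DAB2 or LPL follows from the selection. The likenesses rest on 3 libraries.

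**Figure D3:**
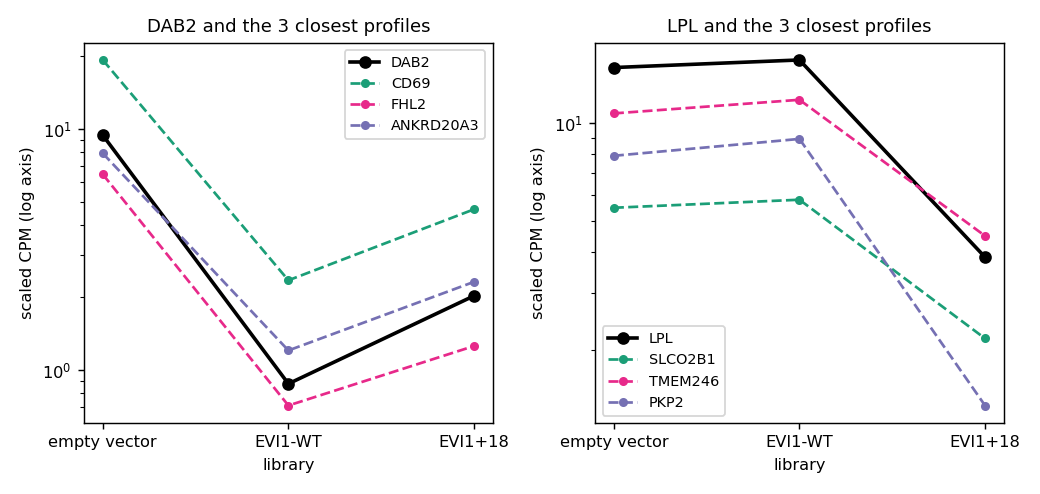
Scaled CPM, counts relative to the library total (log axis), in the 3 libraries for DAB2 (left) and LPL (right), each with the 3 genes of closest profile; 1 library per point, lines join points of one gene. DAB2, CD69, FHL2 and ANKRD20A3 are lowest with EVI1-WT, and LPL, SLCO2B1, TMEM246 and PKP2 with EVI1+18.

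Of 17 listed genes of LPL maturation, anchoring and lipid uptake, 6 averaged 50 counts or more and 0 passed 2-fold in any comparison, where 2.40%, 1.85% and 1.16% of all genes did (EVI1-WT to empty vector, EVI1+18 to empty vector, EVI1+18 to EVI1-WT). The median log2 ratios were -0.11 (EVI1-WT to empty vector), 0.23 (EVI1+18 to empty vector) and 0.34 (EVI1+18 to EVI1-WT). FABP5, a carrier of fatty acids, was 1.28-fold lower with EVI1-WT (1.10 to 1.49) and 1.36-fold lower with EVI1+18 (1.17 to 1.57). PNPLA2, the lipase that starts the breakdown of stored triglyceride, was at 0.899 (0.815 to 0.993) and 1.09 (0.996 to 1.2). HSPG2, the heparan sulphate proteoglycan perlecan, had 3505, 3968 and 6253 counts and was 1.56-fold higher with EVI1+18 than with empty vector (1.49 to 1.62). LMF1, a maturation factor of the lipase, had 1, 3 and 8 counts, and GPIHBP1, its anchor on capillary cells, 1, 0 and 0. CD36, a scavenger receptor that takes up fatty acids, fell under the mean of 50 counts and had 41, 3 and 0.

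Among the reelin pathway, in which LRP8 was the receptor above the floor of counts, the ligand itself differed. RELN had 4576 counts with empty vector, 9737 with EVI1-WT and 10568 with EVI1+18 (37.2, 74.0 and 69.6 TPM). Empty vector was the low library and the EVI1 forms were close to each other. RELN exceeded its empty vector level 2.10-fold in the EVI1-WT library (2.03 to 2.18) and 2.01-fold in that of EVI1+18 (1.95 to 2.09), and on the TPM scale 1.99-fold and 1.87-fold, under 2-fold. DAB1, the adaptor that relays the signal in neurons, was at 0 in all libraries. The kinase gene FYN had 407, 234 and 764 counts and was 1.76-fold lower with EVI1-WT (1.49 to 2.08), 1.64-fold higher with EVI1+18 (1.45 to 1.85) and differed 2.88-fold between the EVI1 forms, EVI1+18 being the higher (2.49 to 3.35). SRC, a kinase of the same family, had 263, 499 and 509 counts and was 1.88-fold and 1.69-fold higher with EVI1-WT and EVI1+18. NCK2, an adaptor, was 2.42-fold lower with EVI1-WT (1.82 to 3.27; 163 and 68 counts). With EVI1+18 NCK2 had 153 counts, at 0.819 of empty vector (0.652 to 1.03) and 1.99-fold above EVI1-WT (1.48 to 2.68). Of the 9 genes of this list averaging 50 counts or more, 1 was higher and 1 lower past 2-fold with EVI1-WT, 1 was higher with EVI1+18, and 1 was higher between the EVI1 forms. Of all genes 0.702% were higher and 1.70% lower past 2-fold with EVI1-WT, 1.01% higher with EVI1+18 and 0.951% higher between the forms.

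Of the other adaptors and coat proteins of clathrin uptake, 25 of 27 averaged 50 counts or more and 0 passed 2-fold in any comparison, near the 2.40%, 1.85% and 1.16% of all genes, with medians of 0.04, 0.08 and 0.04. NUMB, an adaptor with the same kind of tail-binding domain as DAB2, had 1071, 1102 and 1286 counts and was at 1.02 (0.934 to 1.11) and 1.05 (0.965 to 1.14) of empty vector. AP2M1, the subunit of AP2 that reads sorting signals, was at 1.03 and 1.06, and PICALM, a clathrin assembly protein, at 1.14 and 1.21. MYO6, a motor that DAB2 recruits, was at 1.14 with EVI1-WT (0.975 to 1.34) and 1.27-fold lower with EVI1+18 (1.07 to 1.5). FCHO1, an early factor of pit formation, was 1.73-fold lower with EVI1-WT (1.55 to 1.93) and 1.37-fold lower with EVI1+18 (1.24 to 1.52).

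Of 8 other members of the receptor family, 4 averaged 50 counts or more. LRP4, a receptor of agrin and of WNT inhibitors, had 28, 50 and 80 counts and stood 1.77-fold higher in EVI1-WT (1.09 to 2.91) and 2.49-fold higher with EVI1+18 (1.6 to 3.98), the 1 gene of the 4 past 2-fold, where 1.01% of all genes were higher past it with EVI1+18. LRP4 averaged 50 counts or more only through its 80 counts with EVI1+18, so nothing follows from that call. LRP12 had 359, 231 and 300 counts and was 1.57-fold lower with EVI1-WT (1.33 to 1.86) and 1.37-fold lower with EVI1+18 (1.17 to 1.6). LRP10 was at 0.908 and 0.95 of empty vector and LRP11 at 0.749 and 0.970. LRP1B, LRP2 and LRP3 had 0 to 3 counts, and SORL1 was at 0.

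All 12 listed receptor chaperones and turnover factors averaged 50 counts or more and 0 passed 2-fold, a share near the 2.40%, 1.85% and 1.16% of all genes. The medians were -0.06, 0.04 and 0.04. MESDC2, a chaperone needed by LRP5 and LRP6, was at 0.906 and 0.879 of empty vector, CALR, a chaperone of glycoproteins, at 1.0 and 1.03, and HSP90B1, which assists folding in the secretory pathway, at 1.03 and 1.0. MYLIP, a ligase that marks receptors of this family for degradation, was at 0.899 and 1.03. NR1H3, a sterol-sensing nuclear receptor, had 92, 108 and 159 counts and was 1.51-fold higher with EVI1+18 (1.16 to 1.97).

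The WNT list, the partners of LRP5 and LRP6, had 16 of 27 genes averaging 50 counts or more and 0 past 2-fold (all genes 2.40%, 1.85% and 1.16%), with medians of 0.08, 0.04 and 0.07. CSNK1A1, a kinase of the pathway, was at 1.07 and 1.04 of empty vector and GSK3A at 0.932 and 1.05. LGR4, a receptor of R-spondin, had 393, 674 and 683 counts and stood 1.70-fold higher in EVI1-WT (1.49 to 1.92) and 1.52-fold higher with EVI1+18 (1.34 to 1.72). KREMEN2, which with DKK proteins removes LRP6 from the surface, had 41, 55 and 89 counts and was 1.89-fold higher with EVI1+18 (1.29 to 2.81). DKK1 had 0, 0 and 3 counts.

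Ligands and partners of LRP1 were mostly at low levels, and 4 of 13 averaged 50 counts or more, of which 0 passed 2-fold, beside 2.40%, 1.85% and 1.16% of all genes. TFPI, the inhibitor of tissue factor, had 1244, 1150 and 2248 counts and was 1.58-fold higher with EVI1+18 than with empty vector (1.47 to 1.69) and 1.73-fold higher than with EVI1-WT (1.61 to 1.85). PLAU, which codes for urokinase, was 1.5-fold higher (1.14 to 1.97) and its receptor PLAUR 1.39-fold higher (1.10 to 1.76) with EVI1+18 than with empty vector. LGALS1, a galectin, was at 0.865 with EVI1-WT and 0.938 with EVI1+18. The list medians were -0.16, 0.53 and 0.67. A2M, MMP2, MMP9 and GPC3 were at 0 in every library.

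**Figure D4:**
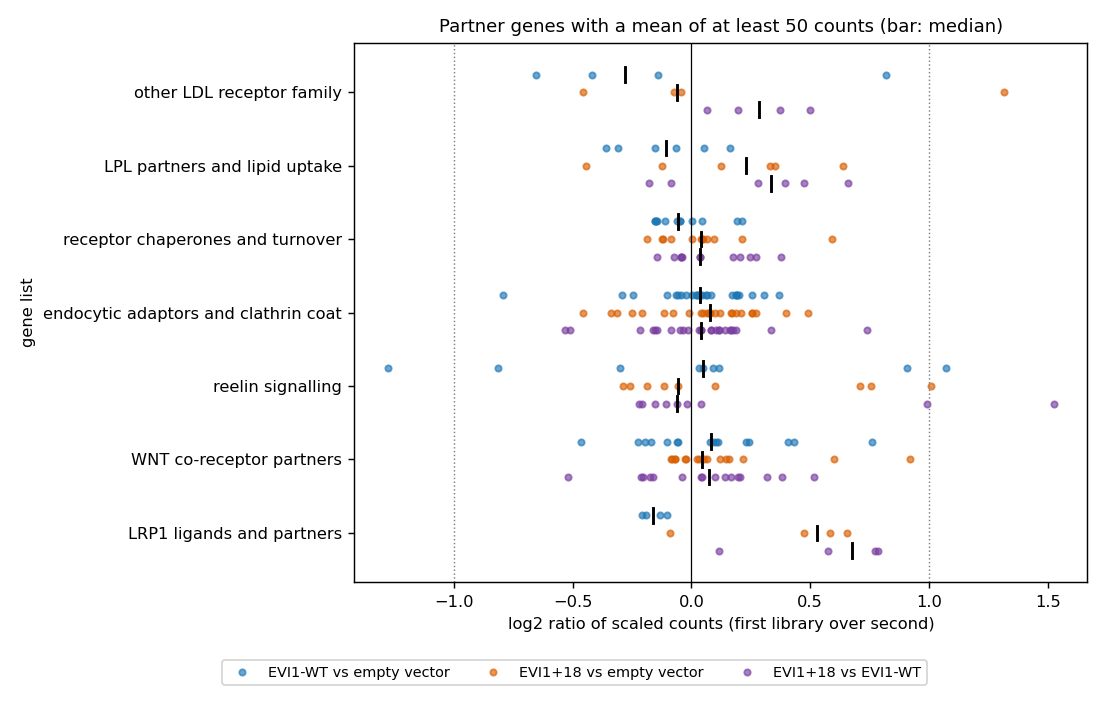
Log2 ratio of scaled counts (x axis, first library over second) for each gene averaging 50 counts or more in 7 lists of related genes, by comparison; black bars are list medians and dotted lines mark 2-fold. RELN, NCK2, FYN and LRP4 are the genes past 2-fold, and the medians for ligands and partners of LRP1 are -0.16, 0.53 and 0.67.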

How the data were processed

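RNA of 3 K562 libraries was sequenced from TruSeq libraries, per the labels' protocols. For each library the authors deposited a gene table of expected counts (estimated counts, of which about 3% were not whole), TPM and FPKM values and transcript lengths, per the file headers. The build was hg19, per the submitters' processing notes. The aligner, counter, annotation and strand setting were not given in the sources used here. FPKM values, deposited beside the TPM values, entered no comparison. Expected counts were rounded and scaled with TMM factors (edgeR 4.0.16, R 4.3.3), which were 1.01, 0.990 and 0.996. Ratio intervals are Clopper-Pearson bounds conditional on the summed count, and intervals of levels are exact Poisson bounds (scipy 1.17.1). Without molecular identifiers reads are not independent molecules, so the intervals and the 3-count floor describe counting error alone. A gene is called at 2-fold, a fixed size, among the 10406 genes averaging 50 counts or more. The intervals and calls were tested on simulated Poisson counts without variation between cultures, so that check covers counting error only. The genes and lists were chosen with earlier results of these data known. All 8 genes and MECOM are named, with up to 4 genes per list past 2-fold or else its 2 most abundant, and the 3 genes of closest profile to DAB2 and LPL (VLDLR had too few counts), leaving out uncharacterised loci, antisense, small RNA and read-through symbols. LRP10, LRP11, LRP12, HSPG2, LMF1, GPIHBP1, SRC, DAB1, NUMB, MYO6, FCHO1, MESDC2, MYLIP, NR1H3, LGR4, KREMEN2, DKK1, PLAU, PLAUR, COL1A1, COL1A2 and CD36, and genes given only as at or near 0, were chosen after their values were seen. Scaling by library total, by DESeq2 1.42.0 size factors or by upper quartile, unrounded counts, TPM, other filters and a 1.5-fold threshold were alternatives.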

Additional observations from a re-analysis of the deposited data

How the results depend on the processing

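For DAB2 and LPL, the described members past 2-fold, directions and calls held under library total, DESeq2 and upper quartile scaling, unrounded counts and TPM. RELN, at 2.10 and 2.01, was under 2-fold on the TPM scale, at 1.99 and 1.87, and genes of the lists were not run under the other alternatives. Of 105 alternative values for 21 ratios, 103 stayed inside the counting interval of the main value, and the others, both on the TPM scale for EVI1+18 against empty vector, were LRP8 at 0.862 and LRP5 at 0.982. The TPM scale moved the median log2 ratio of all described genes in that comparison to -0.10, and ratios of LRP5 there, of LPL between EVI1-WT and empty vector and of LRPAP1 between the EVI1 forms lay on both sides of 1 across scalings. With a mean of at least 10 counts, 2 of these genes were past 2-fold between EVI1-WT and empty vector, LRP1 being added. With no filter 3 were, VLDLR being added on 1 and 0 counts. Between EVI1+18 and empty vector 3 were past 2-fold from a mean of 10 counts, LRP1 being added, and 3 with no filter. Between the EVI1 forms 2 were from a mean of 10 counts and 3 with no filter, VLDLR being added on 0 and 2 counts. Genes past 2-fold overall numbered 693, 577 and 458 from a mean of 10 counts (EVI1-WT to empty vector, EVI1+18 to empty vector, EVI1+18 to EVI1-WT), 2987, 3038 and 2764 with no filter, and 658, 575 and 460 at 1.5-fold, in place of 250, 192 and 121. No paired analysis was possible because each group has 1 library, and for the same reason no library could be left out. Depth limits LRP1, VLDLR and the DAB2 difference between the EVI1 forms, and no value here has a check against a second culture.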

Other observations

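CD36, a scavenger receptor and importer of fatty acids on the list of LPL partners, fell under the mean of 50 counts, with 41 counts with empty vector, 3 with EVI1-WT and 0 with EVI1+18. It was 13.8-fold lower with EVI1-WT (4.41 to 69.8) and at least 15.7-fold lower with EVI1+18, taking 3 counts in that library for the 0, a bound that leaves out the counting error of the 41 counts. With that error included, the exact interval of the ratio reached up to 0.0821. Empty vector was thus the high library for CD36 as for DAB2. COL1A2, with 93, 2 and 20 counts, was 47.0-fold lower with EVI1-WT (12.7 to 394) and 5.33-fold lower with EVI1+18 (3.26 to 9.13). All 3 genes were picked after their values were seen, and each value rests on the same empty vector library.

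HIP1, an adaptor that binds clathrin and actin, had 361, 308 and 582 counts and EVI1+18 exceeded EVI1-WT 1.67-fold (1.45 to 1.92). GULP1, an engulfment adaptor that binds LRP1, had 327, 380 and 302 counts and was 1.43-fold lower in the same comparison (1.22 to 1.66). PPARD, a nuclear receptor activated by fatty acids, was 1.58-fold higher there (1.35 to 1.85). These genes were chosen after their values were seen.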
